A study of Mus musculus with 4 samples.

Results

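Retinoic acid, the active form of vitamin A, is made inside cells in steps and acts through nuclear receptors. Retinol enters through STRA6, is stored as retinyl esters by LRAT, is oxidized to retinaldehyde by short-chain dehydrogenases such as DHRS9 and then to retinoic acid by the ALDH1A enzymes. The cellular binding proteins CRABP1 and CRABP2 carry retinoic acid within the cell, and the cytochrome CYP26B1 breaks it down. In skin, retinoic acid is known for its control of keratinocyte differentiation, sebaceous glands and the hair cycle, and retinoids are used to treat psoriasis. Here, 9 genes of this pathway were followed by name, namely *Stra6*, *Lrat*, *Dhrs9*, *Aldh1a1*, *Aldh1a2*, *Aldh1a3*, *Crabp1*, *Crabp2* and *Cyp26b1*, and all 9 were found among the 24346 gene symbols of each file.

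The RNA sequence analysis used dorsal skin of male wild type C57BL/6 mice, which were 8 weeks old when the diet began. Mice of the Cont-IMQ group (2 libraries) received the NASH diet, which is rich in fat and cholesterol and holds bile salt, for 3 weeks, and mice of the 7KC-IMQ group (2 libraries) received the same diet with the oxysterol 7-ketocholesterol (7KC). All 4 libraries came from skin treated for 1 day with imiquimod (IMQ) cream, which induces psoriasis-like dermatitis. Every value below is thus from IMQ-treated skin of mice on the NASH diet, with or without 7KC. Skin without IMQ was not analysed here. Neither the labels nor the methods say that each library is 1 mouse, and p-values measure only the spread between these libraries.

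Values are FPKM, fragments scaled to exon length and to the number mapped in the library, which can be compared between genes because they are scaled to length. Paired values are given in the order replicate 1 and replicate 2. The depth estimated from the steps of the low values was 14980000 to 16200000 reads per library. Basal keratinocyte markers (*Krt5*, *Krt14* and 5 others) summed to between 7254 and 8884 FPKM and dermal fibroblast markers to between 2681 and 3618 FPKM, so the defining markers of skin were present, and skeletal muscle markers summed to between 6025 and 7470 FPKM. Markers of growing hair follicles differed most between libraries of one group, with a sum over 16 genes of 182 FPKM in Cont-IMQ replicate 1 and 1640 FPKM in Cont-IMQ replicate 2, against 515 and 447 FPKM in 7KC-IMQ skin. In whole skin, fewer cells of a type and less RNA per cell cannot be told apart.

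The 9 genes covered a wide range of levels. *Crabp2* was the most abundant, with a mean of 217 FPKM over the 4 libraries, above 97.4% of the 15896 genes tested. *Aldh1a1* (38.5 FPKM) and *Cyp26b1* (36.2 FPKM) came next, followed by *Crabp1* (15.0 FPKM), *Dhrs9* (6.66 FPKM), *Aldh1a3* (3.71 FPKM), *Lrat* (1.28 FPKM), *Aldh1a2* (0.613 FPKM) and *Stra6* (0.258 FPKM). In 4 of the 8 neighbouring pairs of this order the ranges of the 4 libraries did not overlap. *Crabp1* exceeded *Dhrs9* within each of the 4 libraries although their ranges overlapped across libraries, so that 5 of the 8 pairs had the same order in every library. The remaining pairs, *Aldh1a1* with *Cyp26b1*, *Dhrs9* with *Aldh1a3* and *Lrat* with *Aldh1a2*, changed order in 1 library each. None of the 9 genes was listed at 0 in any library. All 9 passed the filter used for the test, a mean of at least 0.1 FPKM over the 4 libraries.

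Across the table, the groups were compared by limma on log2(FPKM + 1), which understates the change of weakly expressed genes. After Benjamini-Hochberg adjustment over the 15896 genes tested, 0.00629% of the genes passed 0.05, which is 1 gene, and none of the 9 genes was among them (adjusted p from 0.352 to 1.00 in limma). At an unadjusted p under 0.05, 2 of the 9 genes were called, *Crabp1* and *Crabp2*, both higher in the 7KC-IMQ group, where 13.0% of all genes were called, 7.5% as higher and 5.47% as lower. Of all genes called in this way, 57.8% were higher in the 7KC-IMQ group, and 34.2% when each library was rescaled to the same sum of FPKM. Without overlap between the groups, 3 of the 9 genes were higher (*Crabp1*, *Crabp2* and *Dhrs9*) and 2 were lower (*Aldh1a1* and *Aldh1a3*). The background was 46.8% of all genes without overlap, 23.9% higher and 22.9% lower, so that the count of 5 among 9 is near it. The median log2 difference of the 9 genes was -0.00040, against -0.0056 over all genes tested. With so few libraries, the smallest two-sided p that an exact permutation test can give is 0.333.

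**Figure D1:**
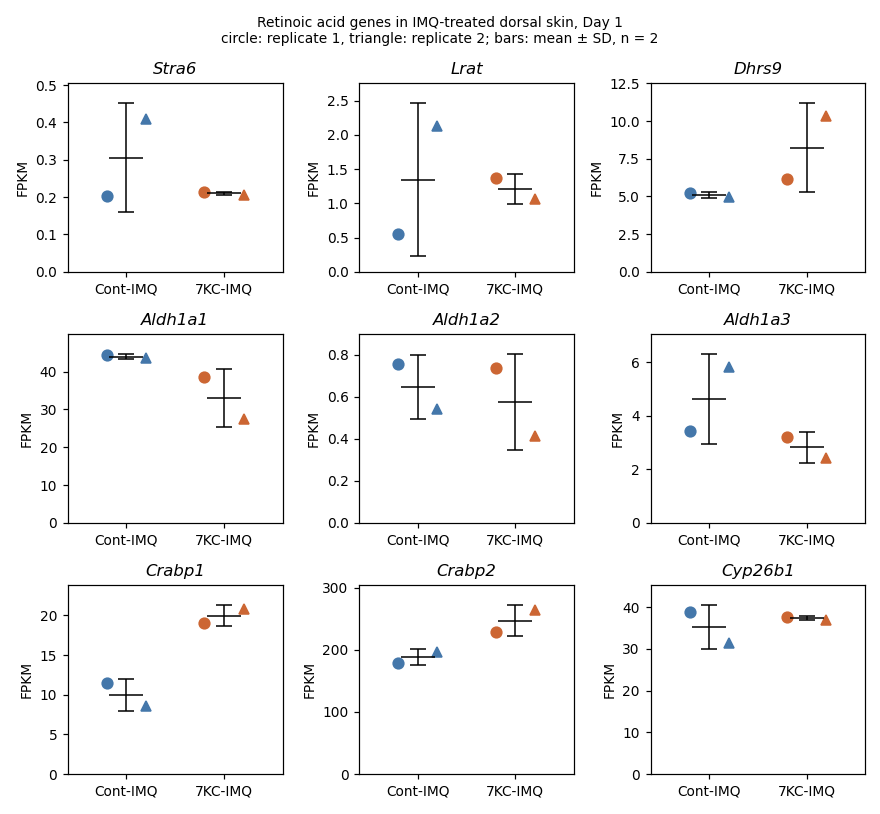
FPKM of each of the 9 genes (vertical axes, linear and starting at 0) by group (2 libraries each), with replicate 1 as circles, replicate 2 as triangles and the mean ± SD of each group as bars. The groups are apart in *Crabp1*, *Crabp2*, *Dhrs9*, *Aldh1a1* and *Aldh1a3*, and overlap in *Stra6*, *Lrat*, *Aldh1a2* and *Cyp26b1*.

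Of the 9 genes, *Crabp1* had the largest log2 difference and the smallest unadjusted p in limma. *Crabp1* (ENSMUSG00000032291.8, chromosome 9 of GRCm38 from 54764748 to 54773110, plus strand) encodes a protein that binds retinoic acid in the cytosol and in skin is known from dermal cells. Its level was 11.4 and 8.55 FPKM in Cont-IMQ skin and 19.0 and 20.9 FPKM in 7KC-IMQ skin. The groups did not overlap, and the values rest on an estimated 105 and 78 reads against 185 and 188 reads of its single annotated transcript. The mean was 10.0 ± 2.04 FPKM (SD, n = 2) against 19.9 ± 1.32 FPKM (SD, n = 2), a ratio of means of 1.99. The log2 difference was 0.94 (standard error 0.15, 95% interval 0.53 to 1.34, adjusted p = 0.352 in limma). Of all genes tested, 0.579% had a smaller unadjusted p. When any 1 library was left out, the difference ranged from 0.75 to 1.13.

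*Crabp2* (ENSMUSG00000004885.5, chromosome 3 from 87948666 to 87953376, plus strand) encodes the binding protein of the epidermis, which hands retinoic acid to its nuclear receptor. It had 179 and 197 FPKM in Cont-IMQ skin and 229 and 264 FPKM in 7KC-IMQ skin, again without overlap. The mean was 188 ± 12.5 FPKM (SD, n = 2) against 247 ± 24.6 FPKM (SD, n = 2), with a log2 difference of 0.39 (standard error 0.11, 95% interval 0.11 to 0.67, adjusted p = 0.356 in limma). Among the fits with 1 library left out, *Crabp2* was not under an unadjusted p of 0.05 without Cont-IMQ replicate 1 or without 7KC-IMQ replicate 2, whereas *Crabp1* stayed under it in all 4. *Crabp2* exceeded *Crabp1* by a factor of 15.7 and 23.0 in the Cont-IMQ libraries and of 12.1 and 12.7 in the 7KC-IMQ libraries. The ratio was thus lower in both 7KC-IMQ libraries.

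*Fabp5* encodes a fatty acid binding protein that can also carry retinoic acid. It was far more abundant, with 2127 and 1866 FPKM in Cont-IMQ skin and 2703 and 3909 FPKM in 7KC-IMQ skin. Its log2 difference was 0.71 (standard error 0.22, adjusted p = 0.364 in limma). Without 7KC-IMQ replicate 2, *Fabp5* had a difference of 0.44. *Fabp5* exceeded *Crabp2* by a factor of 11.9 and 9.48 in the Cont-IMQ libraries and of 11.8 and 14.8 in the 7KC-IMQ libraries, and here the groups overlapped.

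*Stra6* and *Lrat* were among the 3 least abundant of the 9 genes. *Stra6* (ENSMUSG00000032327.14, chromosome 9 from 58063788 to 58153996, plus strand) encodes the cell surface receptor for retinol bound to its plasma carrier. It had 0.203 and 0.409 FPKM in Cont-IMQ skin and 0.213 and 0.207 FPKM in 7KC-IMQ skin. The 13 coding transcripts of *Stra6* differ in length from 398 to 3077 bases, and 0.203 FPKM would be 9 reads of the longest and 1 read of the shortest, the latter under the floor of 3 reads. A difference between the groups in *Stra6* was not detectable at this depth (log2 difference -0.11, 95% interval -0.43 to 0.22).

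*Lrat* (ENSMUSG00000028003.6, chromosome 3 from 82892579 to 82903973, minus strand) encodes the enzyme that esterifies retinol for storage. Its level was 0.554 and 2.14 FPKM in Cont-IMQ skin and 1.36 and 1.06 FPKM in 7KC-IMQ skin, from an estimated 43, 166, 114 and 82 reads. The Cont-IMQ libraries were thus the lowest and the highest, a factor of 3.86 apart, and the 7KC-IMQ libraries lay between them. The log2 difference of *Lrat* was -0.00040 with a 95% interval from -0.94 to 0.94. Without Cont-IMQ replicate 1 it was -0.51, and without Cont-IMQ replicate 2 it was 0.51. The 4 libraries have the same order in *Lrat* as in the summed hair follicle markers (182, 1640, 515 and 447 FPKM). Melanocyte (50.3, 155, 89.2 and 77.1 FPKM), dermal papilla (48.5, 71.7, 55.8 and 54.0 FPKM) and adipocyte sums (1085, 1564, 1551 and 1098 FPKM) have this order too. The sums of the other marker lists do not. An order of only 4 libraries is easily matched. The part of follicle content in the *Lrat* values was not tested.

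**Figure D2:**
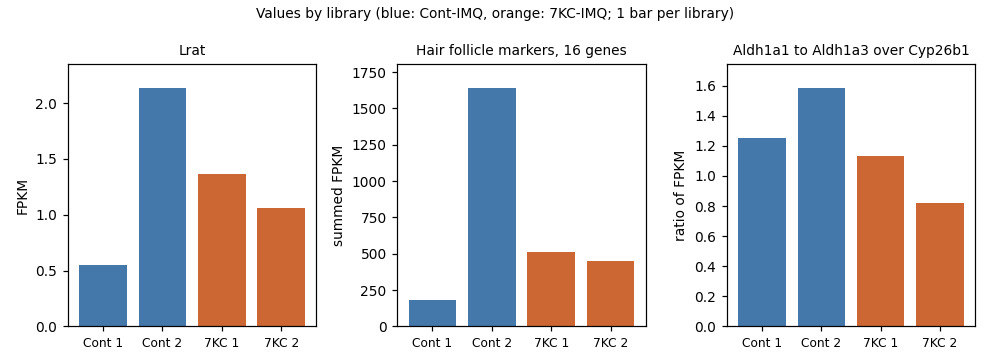
FPKM of *Lrat*, summed FPKM of 16 growing hair follicle markers, and the ratio of summed *Aldh1a1*, *Aldh1a2* and *Aldh1a3* to *Cyp26b1*, each as 1 bar per library on a linear axis from 0, with Cont-IMQ in blue and 7KC-IMQ in orange. *Lrat* runs from 0.554 to 2.14 FPKM with Cont-IMQ replicate 2 highest in both left panels, and the ratio falls below 1 in 7KC-IMQ replicate 2 alone, at 0.821.

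The first oxidation step was represented by *Dhrs9* (ENSMUSG00000027068.6, chromosome 2 from 69380445 to 69404533, plus strand), which encodes a dehydrogenase of differentiating epithelium that turns retinol into retinaldehyde. Its level was 5.21 and 4.94 FPKM in Cont-IMQ skin and 6.15 and 10.3 FPKM in 7KC-IMQ skin. The groups did not overlap, but the 7KC-IMQ libraries differed from each other by more than replicate 1 differed from the Cont-IMQ libraries. The mean was 5.08 ± 0.193 FPKM (SD, n = 2) against 8.24 ± 2.95 FPKM (SD, n = 2), with a log2 difference of 0.57 (standard error 0.24, 95% interval -0.06 to 1.19, adjusted p = 0.417 in limma). Without 7KC-IMQ replicate 2 the difference was 0.23, and without 7KC-IMQ replicate 1 it was 0.90.

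The second oxidation step, from retinaldehyde to retinoic acid, is catalyzed by the 3 ALDH1A enzymes, and *Aldh1a1* (ENSMUSG00000053279.8, chromosome 19 from 20492715 to 20643465, plus strand) made up 87.3% to 91.4% of their summed FPKM in every library. *Aldh1a1* had 44.4 and 43.5 FPKM in Cont-IMQ skin and 38.5 and 27.6 FPKM in 7KC-IMQ skin. Both 7KC-IMQ libraries were lower, replicate 2 by more. The mean was 44.0 ± 0.619 FPKM (SD, n = 2) against 33.1 ± 7.75 FPKM (SD, n = 2), with a log2 difference of -0.42 (standard error 0.17, 95% interval -0.86 to 0.03, adjusted p = 0.400 in limma). The difference was -0.19 without 7KC-IMQ replicate 2 and -0.65 without 7KC-IMQ replicate 1.

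*Aldh1a3* (ENSMUSG00000015134.15, chromosome 7 from 66390890 to 66427517, minus strand), which encodes a retinaldehyde dehydrogenase of epithelia, had 3.43 and 5.80 FPKM in Cont-IMQ skin and 3.22 and 2.41 FPKM in 7KC-IMQ skin. The groups did not overlap by a narrow margin, since Cont-IMQ replicate 1 and 7KC-IMQ replicate 1 differed by less than the libraries within either group. The log2 difference of *Aldh1a3* was -0.53 (standard error 0.25, 95% interval -1.19 to 0.12, adjusted p = 0.450 in limma), and -0.22 without Cont-IMQ replicate 2, the library with the highest sum of hair follicle markers. Cont-IMQ replicate 1 had the lowest such sum (182 FPKM, against 515 and 447 FPKM in 7KC-IMQ skin). Its *Aldh1a3* value was above those of both 7KC-IMQ libraries. The part of follicle content was not tested.

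*Aldh1a2* (ENSMUSG00000013584.5, chromosome 9 from 71215789 to 71296243, plus strand), known as the main enzyme of retinoic acid synthesis in mesodermal tissues of the embryo, was low, with 0.757 and 0.541 FPKM against 0.737 and 0.416 FPKM, from an estimated 24, 17, 25 and 13 reads. The groups overlapped (log2 difference -0.07, 95% interval -0.47 to 0.33). The summed FPKM of the 3 genes was 48.6 and 49.9 in the Cont-IMQ libraries and 42.5 and 30.4 in the 7KC-IMQ libraries, which follows *Aldh1a1*.

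Clearance was represented by *Cyp26b1* (ENSMUSG00000063415.12, chromosome 6 from 84571414 to 84593908, minus strand), which encodes a cytochrome P450 that hydroxylates retinoic acid. It was the steadiest of the 9 genes, with 38.9 and 31.5 FPKM in Cont-IMQ skin and 37.6 and 37.0 FPKM in 7KC-IMQ skin, its highest library exceeding its lowest by a factor of 1.23. The 7KC-IMQ libraries lay between the Cont-IMQ libraries. The log2 difference was 0.09 (standard error 0.12, 95% interval -0.22 to 0.40, adjusted p = 0.780 in limma). Summed *Aldh1a1*, *Aldh1a2* and *Aldh1a3* exceeded *Cyp26b1* by a factor of 1.25 and 1.58 in the Cont-IMQ libraries and stood at 1.13 and 0.821 times its level in the 7KC-IMQ libraries. This ratio was formed after the values were seen and carries no test.

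**Figure D3:**
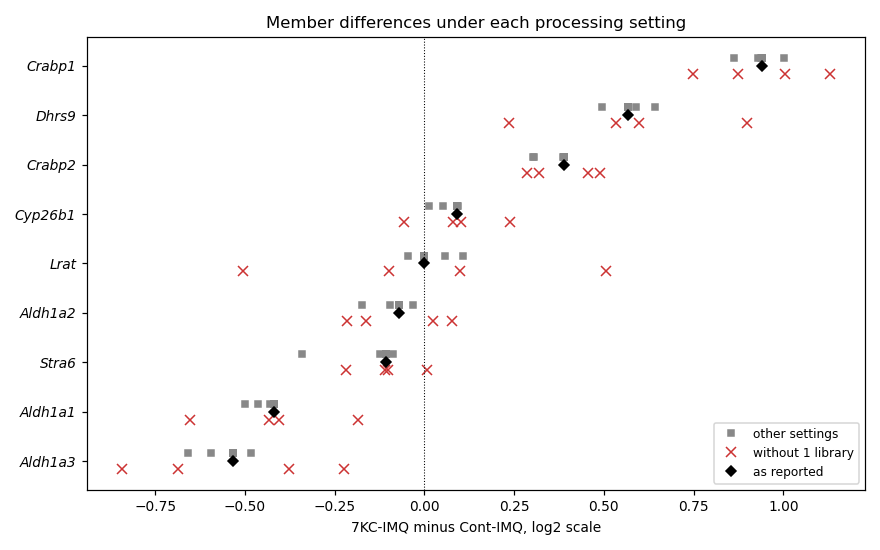
Difference between the 7KC-IMQ and Cont-IMQ groups on the log2 scale (horizontal axis) for each of the 9 genes, as reported (diamonds), under the other settings with all 4 libraries (squares) and with 1 library left out (crosses). *Crabp1*, *Dhrs9* and *Crabp2* stay above 0 and *Aldh1a1* and *Aldh1a3* below 0 at every point shown, while *Lrat* runs from -0.51 to 0.51. For the crosses of the former genes this was fixed in advance, because their groups do not overlap. The squares for the other filters, no variance trend and the replicate block repeat the reported value.

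The sequences just before the transcription start are shown for *Crabp1* and *Dhrs9*, which were higher without overlap in the 7KC-IMQ group, for *Aldh1a1*, which was lower, and for *Cyp26b1*, the steadiest gene. They are from RefSeq (GRCm38.p6), cover the 250 bases before the start annotated there and are written 5′ to 3′ on the strand of the gene. By the GENCODE coordinates given above, the *Aldh1a1* window lies inside the gene, as do the last bases of the *Dhrs9* window. A larger part of the *Cyp26b1* window, from 84593811 to 84593908, also lies inside the gene and holds the last of its GC boxes. In the table of promoters, 7 of the 9 genes had an entry, and *Crabp2* and *Aldh1a3* had none. Capitals mark GGGCGG (the GC box), CCAAT and the hexamers AGGTCA, its variant AGTTCA, the variant GGGTCA and the variant GGTTCA (the core bound by retinoic acid receptors and many other nuclear receptors), each on either strand, and TATAAA on the strand of the gene. No 2 marked motifs overlap in the windows shown. The windows are chr9:54764498-54764747 (plus strand) for *Crabp1*, chr2:69380212-69380461 (plus strand) for *Dhrs9*, chr19:20601718-20601967 (plus strand, the second of 2 annotated starts, the window of the first holding none of these motifs) for *Aldh1a1* and chr6:84593811-84594060 (minus strand) for *Cyp26b1*.
Crabp1: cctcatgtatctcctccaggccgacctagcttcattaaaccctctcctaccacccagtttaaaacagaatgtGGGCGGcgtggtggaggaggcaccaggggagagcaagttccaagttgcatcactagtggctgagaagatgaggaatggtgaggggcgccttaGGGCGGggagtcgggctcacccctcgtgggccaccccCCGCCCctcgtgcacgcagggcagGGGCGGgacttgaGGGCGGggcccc
Dhrs9: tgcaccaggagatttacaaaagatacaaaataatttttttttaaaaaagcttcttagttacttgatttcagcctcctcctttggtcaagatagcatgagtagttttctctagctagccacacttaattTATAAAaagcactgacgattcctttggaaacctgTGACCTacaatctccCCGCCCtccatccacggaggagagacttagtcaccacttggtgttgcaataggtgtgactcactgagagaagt
Aldh1a1: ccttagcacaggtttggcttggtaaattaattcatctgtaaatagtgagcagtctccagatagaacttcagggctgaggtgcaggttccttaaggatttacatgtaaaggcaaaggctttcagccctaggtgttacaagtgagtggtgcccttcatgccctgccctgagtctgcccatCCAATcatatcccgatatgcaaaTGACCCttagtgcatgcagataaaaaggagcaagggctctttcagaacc
Cyp26b1: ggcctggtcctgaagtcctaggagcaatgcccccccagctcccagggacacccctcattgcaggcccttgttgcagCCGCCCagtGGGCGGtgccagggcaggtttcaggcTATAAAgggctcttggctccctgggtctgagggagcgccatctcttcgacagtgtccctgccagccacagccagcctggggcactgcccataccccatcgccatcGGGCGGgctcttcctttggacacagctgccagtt

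The *Crabp1* window held 5 GC boxes and no hexamer, and 63.6% of its bases were G or C. The *Dhrs9* window held 1 GC box, TATAAA and the hexamer TGACCT, which is AGGTCA read on the other strand, with a GC content of 40.4%. The *Aldh1a1* window held CCAAT and TGACCC, which is GGGTCA on the other strand, with a GC content of 46.4%, and the *Cyp26b1* window 3 GC boxes and TATAAA with a GC content of 64.8%. Over the 32817 promoter windows of the table, 32.7% held a GC box, 33.8% CCAAT, 7.60% TATAAA and 38.6% at least 1 of the hexamers, and the median GC content was 52.4%. A repeat of GGTCA, or of its variant GTTCA, with 6 bases between, as in the response elements to which retinoic acid receptors are best known to bind, was in 0.210% of all windows and in none of the 7 genes' windows. The same repeat with 3 bases between was in 0.293% of all windows and again in none of the 7 genes' windows. A match describes these letters and is not a shown binding site.

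The rest of the pathway was described from lists by role, which held 49 further genes, 42 of them with a mean of at least 0.1 FPKM. None of the 42 passed an adjusted p of 0.05 in limma. At an unadjusted p under 0.05, 4 were higher with 7KC and 3 lower, 16.7% of the 42 against 13.0% of all genes tested. Without overlap, 10 were higher and 7 lower, 40.5% against 46.8%. The median log2 difference of the 42 was 0.0091. Thus the other retinoid genes were near the background of the table.

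Retinol carriers are described by example. *Rbp2*, best known as the retinol carrier of the intestine, had 119 and 102 FPKM in Cont-IMQ skin and 143 and 202 FPKM in 7KC-IMQ skin (log2 difference 0.62, standard error 0.19, adjusted p = 0.365 in limma), and its difference was 0.37 without 7KC-IMQ replicate 2. *Fabp5* and *Rbp2* were under an unadjusted p of 0.05 in only 1 of the 4 fits with 1 library left out, that without 7KC-IMQ replicate 1. *Ttr*, which encodes the plasma partner of the retinol carrier, had 2.38 and 2.79 FPKM against 1.98 and 1.76 FPKM. Of the 4 genes of ester storage and release besides *Lrat*, 1 was called at an unadjusted p under 0.05 (25%, against 13.0% of all genes tested). It was *Dgat1*, named after its values were seen, with 34.2 and 29.4 FPKM against 38.0 and 38.4 FPKM. Neither of the 2 carotenoid cleavage genes was called, beside the same 13.0% of all genes.

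Of the 18 other oxidoreductases tested, none was higher and 2 were lower at an unadjusted p under 0.05, which is 11.1% and no more than the 13.0% of all genes tested. *Adh7*, which encodes the retinol-oxidizing alcohol dehydrogenase of epithelia, had 54.1 and 44.9 FPKM in Cont-IMQ skin and 35.8 and 30.9 FPKM in 7KC-IMQ skin (log2 difference -0.56, standard error 0.13, adjusted p = 0.356 in limma). *Adh1*, another alcohol dehydrogenase that acts on retinol, had 38.1 and 41.3 FPKM against 28.4 and 30.3 FPKM (log2 difference -0.42, standard error 0.083, adjusted p = 0.352 in limma). Both were lower without overlap, so neither could change sign with a library left out. With each library left out, the log2 differences were -0.69 to -0.42 for *Adh7* and -0.48 to -0.36 for *Adh1*. *Rdh10*, the main retinol dehydrogenase of the embryo, pointed the other way, with 7.55 and 6.18 FPKM against 7.87 and 9.99 FPKM (log2 difference 0.33, standard error 0.16, adjusted p = 0.457 in limma), and its difference was 0.21 without Cont-IMQ replicate 2 and 0.18 without 7KC-IMQ replicate 2. *Dhrs3*, which encodes a reductase that returns retinaldehyde to retinol and is a known target of retinoic acid, had 35.2 and 33.8 FPKM against 34.0 and 31.0 FPKM, with overlap.

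*Aldh1a7* lies beside *Aldh1a1* on chromosome 19 (20692953 to 20727562) and is its close copy. It had 4.27 and 2.55 FPKM in Cont-IMQ skin and 2.16 and 1.81 FPKM in 7KC-IMQ skin (log2 difference -0.54, standard error 0.22, adjusted p = 0.410 in limma), and its difference was -0.25 without Cont-IMQ replicate 1 and -0.82 without Cont-IMQ replicate 2. Of the 75-base windows of *Aldh1a1* transcripts, 1.01% occur letter for letter in *Aldh1a7*. Reads that map with mismatches are not covered by this share, and the same reads would weigh more in *Aldh1a7*, the less abundant gene, so its values are uncertain. Of the other genes followed here, *Aldh1a3* shared 0.587% of its windows with other genes and the remaining 7 shared none.

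Retinoic acid acts through its nuclear receptors. *Rarg*, the main retinoic acid receptor of epidermis, had 85.0 and 82.0 FPKM in Cont-IMQ skin and 71.7 and 69.9 FPKM in 7KC-IMQ skin (log2 difference -0.23, standard error 0.069, adjusted p = 0.356 in limma), and was the one receptor of 6 with an unadjusted p under 0.05 (16.7%, against 13.0% of all genes tested). *Rarg* kept this only without Cont-IMQ replicate 2 among the 4 fits with 1 library left out. It made up 86.9% to 89.7% of the summed FPKM of the 3 retinoic acid receptors. *Rara* had 9.11 and 11.1 FPKM against 10.2 and 9.50 FPKM, and *Rarb*, itself a known target of retinoic acid, 0.624 and 0.530 FPKM against 0.537 and 0.644 FPKM. Both overlapped between the groups. The partner receptors *Rxra* (67.7 and 63.2 FPKM against 62.4 and 65.5 FPKM) and *Rxrb* (21.7 and 24.7 FPKM against 21.0 and 23.5 FPKM) overlapped as well. *Rxrg* was low, with 1.37 FPKM in both Cont-IMQ libraries and 1.53 and 1.52 FPKM in 7KC-IMQ skin.

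*Cyp26a1*, a strongly inducible clearing enzyme, was listed at 0 in 3 libraries and at 0.0412 FPKM in Cont-IMQ replicate 1, and was not tested.

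**Figure D4:**
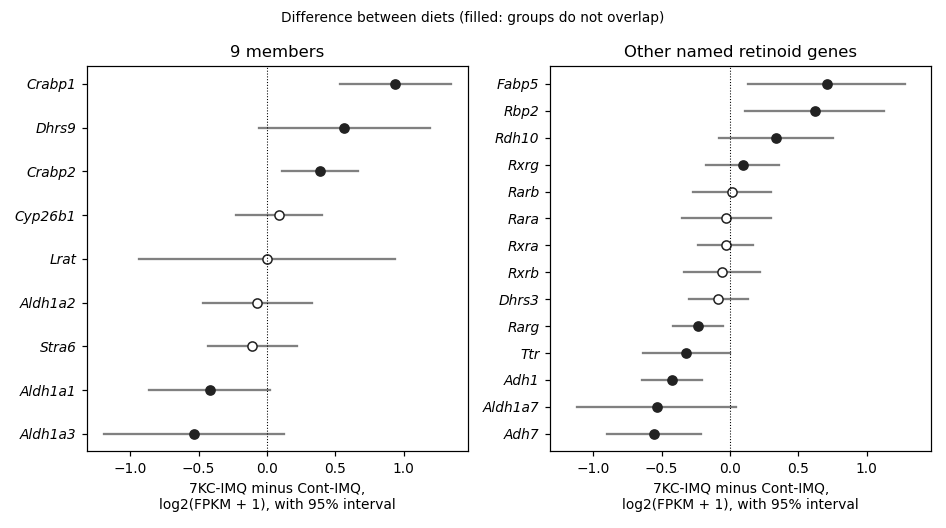
Difference between the 7KC-IMQ and Cont-IMQ groups in log2(FPKM + 1) with its 95% interval from limma (n = 2 libraries in each group), for the 9 genes (left) and for the other named retinoid genes (right), filled where the groups do not overlap. The interval lies above 0 for *Crabp1*, *Crabp2*, *Fabp5* and *Rbp2*, and below 0 for *Adh7*, *Adh1* and *Rarg*, before adjustment for the number of genes tested.

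Markers of several cell types differed between the groups beside these genes. Of 11 sebaceous gland markers, 9 were higher and 1 lower without overlap in the 7KC-IMQ group (over all genes 23.9% and 22.9%), and their sum was 1511 to 1759 FPKM in the Cont-IMQ group and 1986 to 2061 FPKM in the 7KC-IMQ group. The neutrophil list summed to 2143 to 2592 FPKM against 7233 to 13828 FPKM, of which *S100a8* and *S100a9*, which keratinocytes express too, gave nearly all. Of its 8 markers, 2 were at 0 in at least 1 library. Of the 7 neutrophil markers tested, 5 were higher and 1 lower without overlap, where 23.9% and 22.9% of all genes were. Of 6 endothelial markers, 5 were lower without overlap, where 22.9% of all genes were, and their sum was 53.1 to 58.6 FPKM against 42.4 to 44.3 FPKM. The sums of dermal papilla markers (48.5 to 71.7 FPKM against 54.0 to 55.8 FPKM) overlapped between the groups. So did those of dermal fibroblast markers (2681 to 3618 FPKM against 3012 to 3410 FPKM) and differentiated epidermis markers (11734 to 19143 FPKM against 13364 to 14692 FPKM). None of the markers in these lists was at 0 in all libraries. Basal keratinocyte, adipocyte (1085 to 1564 FPKM against 1098 to 1551 FPKM), skeletal muscle, melanocyte, dendritic and Langerhans cell (659 to 917 FPKM against 686 to 918 FPKM) and red blood cell (6.79 to 27.0 FPKM against 6.74 to 25.6 FPKM) sums varied as well within groups. The summed T cell markers were 14.5 to 16.1 FPKM against 9.85 to 12.3 FPKM, and those of macrophages and monocytes 172 to 192 FPKM against 154 to 170 FPKM. The part of any of these cell types in the differences of the retinoid genes was not tested.

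Genes of like pattern were sought among the 13109 other genes with a mean of at least 1 FPKM, by the root mean square difference between profiles of log2(FPKM + 1) centred on the mean of the 4 libraries. The nearest to *Crabp1* were *Tnfaip2* (0.047), *Dnmt3l* (0.096) and *Atp12a* (0.097), and only these 3 genes were within 0.1. *Tnfaip2* had 20.4 and 16.9 FPKM in Cont-IMQ skin and 34.5 and 36.9 FPKM in 7KC-IMQ skin. The nearest to *Crabp2* were *Npm3*, *Slc41a1* and *Hspd1*, where 608 genes were within 0.1. The range of *Crabp2* over the 4 libraries was smaller (0.557 on the log2 scale, against 1.19 for *Crabp1*). A fixed cutoff is met more easily at a small range, so these counts cannot be compared between the genes. *Dhrs9* was nearest to *Rhof*, *Depdc7* and *Cebpb*, the last with 112 and 117 FPKM against 134 and 204 FPKM. *Aldh1a1* was nearest to *Dcdc2c*, *Acy3* and *Hes6*, *Aldh1a3* to *Pvrl3*, *Tspan6* and *Trim2*, and *Lrat* to *Tagln*, *Samd5* and *Cd164l2*. Profiles over 4 libraries are a description only.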

How the data were processed

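Total RNA of IMQ-treated dorsal skin was sequenced in 4 libraries, whose groups and replicate numbers are those of the labels. The authors mapped 75-base single-end reads of stranded libraries to mm10 and deposited FPKM values, one file per library. The labels name TopHat2 2.1.1, Bowtie2 2.2.8, SAMtools 0.1.18 and Cuffdiff 2.2.1, whereas the paper's methods name Cufflinks and other versions. The gene annotation, strand setting and treatment of reads that map to several genes are not given in the sources used here. FPKM are not counts, so no count model was used.

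From the deposited FPKM, log2(FPKM + 1) was compared between the groups by lmFit and eBayes of limma 3.58.1 (R 4.3.3) (trend of variance with level) in the 15896 genes averaging at least 0.1 FPKM, with Benjamini-Hochberg adjustment at 0.05. The fit was tested on simulated data. Depth was estimated as the read total at which weakly expressed genes with 1 annotated transcript come closest to whole reads (length less 200 bases, within 0.1 of a read for 73.8% to 77.3% of genes, where 20% would be by chance). Estimated reads cover counting error only, and 3 reads was the floor. Coordinates and transcript lengths came from GENCODE M21 (GRCm38, also called mm10).

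The 9 genes and the lists were chosen with earlier results of these data known. Named genes were all members, the retinoid receptors and 6 further genes whatever their values, and pathway genes with a mean of at least 1 FPKM, no overlap and an absolute log2 difference of at least 0.3. Exceptions are given as such, and 1 gene of these is not reported here by name. Of the marker genes listed, *Flg*, *Ly6g*, *Trac*, *Trdc* and *Hbb-bt* were not used here. Alternatives were a pseudocount of 0.1, other filters, 3 other scalings, no trend, a replicate block and leaving out each library. Data for vehicle-treated skin and liver were not analysed here.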

Additional observations from a re-analysis of the deposited data

How the results depend on the processing

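Under 12 alternatives, 98 of 106 log2 differences of the 9 genes kept their sign, and 5 genes kept it throughout, *Crabp1*, *Crabp2*, *Dhrs9*, *Aldh1a1* and *Aldh1a3*. Much of this was fixed in advance. The other filters, no trend and the replicate block leave each difference unchanged. Leaving out 1 library cannot turn the sign of a gene whose groups do not overlap. No alternative brought any of the 9 genes past an adjusted p of 0.05 in limma (lowest adjusted p = 0.185, range for *Crabp1* 0.185 to 0.967). The sign of *Lrat* turned with a pseudocount of 0.1 (0.11) and quantile normalization (0.059), and that of *Rarb* on rescaling to the same sum (-0.018). When any 1 library was left out, the differences that changed sign ranged from -0.51 to 0.51 in *Lrat* (above 0 without Cont-IMQ replicate 2 or 7KC-IMQ replicate 2, at 0.51 and 0.099), -0.22 to 0.0081 in *Stra6* (above 0 without Cont-IMQ replicate 2), -0.22 to 0.078 in *Aldh1a2* (above 0 without Cont-IMQ replicate 1 or 7KC-IMQ replicate 2), -0.057 to 0.24 in *Cyp26b1* (below 0 without Cont-IMQ replicate 2), -0.16 to 0.10 in *Rara*, -0.036 to 0.061 in *Rarb*, -0.080 to 0.017 in *Rxra* and -0.15 to 0.035 in *Rxrb*. The cause was not tested.

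With each library left out, between 1 and 4 of the 9 genes had an unadjusted p under 0.05, 4 without Cont-IMQ replicate 1 or 7KC-IMQ replicate 1 and 1 (*Crabp1*) without 7KC-IMQ replicate 2. Between 5 and 9 of them did not overlap, 8 without Cont-IMQ replicate 1 and 9 without Cont-IMQ replicate 2, where fewer libraries can overlap by construction. The share of all genes without overlap in these fits is not given here, so these counts have no background and cannot be judged. Between 2 and 11 of the other pathway genes had an unadjusted p under 0.05, 2 without 7KC-IMQ replicate 2, 4 without 7KC-IMQ replicate 1 and 11 without Cont-IMQ replicate 1. Over all genes the count ran from 615 without 7KC-IMQ replicate 2 to 2331 without Cont-IMQ replicate 1, and 1137 without 7KC-IMQ replicate 1, against 2061, and between 1 and 9 genes passed the adjusted p, 9 without Cont-IMQ replicate 1 and 5 without Cont-IMQ replicate 2. A lone library was assumed to vary like the other group. With a pseudocount of 0.1, 2 genes passed in place of 1.

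Both groups use the replicate numbers 1 and 2, and the sources give no litter, batch or day that same-numbered libraries share. Deviations of same-numbered libraries had a correlation of 0.07 over genes. With the replicate number as a block (replicate block), 1754 genes and 3 of the 9 genes, *Aldh1a1* being the third, had an unadjusted p under 0.05. At the estimated depth, *Stra6* and *Aldh1a2* rest on few reads.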
